A study of Mus musculus with 74 samples.

Results

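Protocadherins are the largest group of cadherin adhesion proteins. All genes of the deposited count table whose symbol starts with Pcdh were taken, which gave 38 of 37620 genes. Of these, 25 belong to the alpha, beta and gamma clusters, with 2, 22 and 1 entries respectively, and 13 are non-clustered genes outside these clusters. All 38 had reads in at least 1 library, and 2 of them, Pcdhb20 and a second entry under the symbol Pcdh15, are annotated as pseudogenes. A protocadherin protein carries an extracellular stretch of cadherin repeats through which it binds its like on a neighbouring cell. Clustered genes are known from neurons, where each cell switches on a few of many alternative promoters and so acquires a surface identity, with the insulator protein CTCF and cohesin bringing promoters and enhancers together. Non-clustered members such as Pcdh1, Pcdh8, Pcdh18 and Pcdh19 are known from epithelia, gastrulating mesoderm and the developing nervous system.

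The libraries come from mouse embryonic stem (ES) cells, which stay undifferentiated with the cytokine LIF and begin to differentiate without it. The SunTag lines descend from E14Tg2a cells and carry a doxycycline (Dox)-inducible dCas9 that recruits copies of the VP64 activator, together with a guide RNA to the Nanog promoter. C1 and C2 are each 1 clone. The Nanog/Otx2 lines C1ON3 and C2ON3, also 1 clone each, were made from these by adding a guide to Otx2. Both pairs of lines were grown with or without LIF (10 ng/mL) and with or without Dox (1 µg/mL) and harvested on day 3, which gave 3, 2, 3 and 3 libraries of the Nanog lines (LIF without Dox, LIF with Dox, neither, Dox alone) and 3, 4, 4 and 4 of the Nanog/Otx2 lines in the same order. In addition, 44iN cells, which lack endogenous Nanog and express it from a Dox-dependent transgene, were sequenced with Dox (n = 2), 24 h after its removal (n = 2) and after long-term culture without it under G418 selection (n = 2), alongside wild-type Tg2a cells in serum (FCS) (n = 3). These 44iN and Tg2a cells all received LIF. Nothing in the labels says whether libraries of 1 clone came from separate cultures, so p-values measure the spread between libraries, which may be technical.

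The 35 libraries held between 6107512 and 92244655 counts each (median 29298745), the shallowest being a C2ON3 library with LIF and without Dox. Levels below are normalised counts, that is counts divided by the library's size factor, and are given as mean ± SD. With Dox, mean Nanog went from 24924 ± 4013 to 84519 ± 13143 with LIF and from 5916 ± 3271 to 51805 ± 5875 without LIF in the Nanog lines, and from 19480 to 44065 and from 4425 to 39530 in the Nanog/Otx2 lines. Mean Otx2 went with Dox from 952 to 3509 with LIF and from 4074 to 7173 without LIF in the Nanog/Otx2 lines, and was lower with Dox in the Nanog lines. In 44iN cells Nanog stood at 15880 with Dox and at 722 after 24 h without. LIF removal went with a loss of naive pluripotency markers, of which 8 of 8 fell in both pairs of lines. Of all genes tested, 21.3% fell in the Nanog and 25.2% in the Nanog/Otx2 lines. Primed markers gained, with 5 of 5 tested rising in the Nanog lines (20.2% of all genes rose). In the Nanog/Otx2 lines 6 of 6 entries rose (24.6% of all genes). The summed level of the naive list ranged from 62037 to 69355 with LIF and from 2099 to 3419 without it in Nanog lines lacking Dox, and the primed list from 3668 to 7190 and from 71471 to 84834. The neuronal markers Dcx and Neurog2 were at 0 in every Nanog-line library with LIF.

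Few protocadherins were expressed beyond a trace. The gamma entry, listed as Pcdhga9, carried most of the clustered signal, and Pcdh1 most of the non-clustered signal in the SunTag lines. The 22 beta genes together reached no more than 85.8 normalised counts in any library. Requiring each library of some condition to hold 10 normalised counts or more left 7 members in the Nanog lines and 6 in the Nanog/Otx2 lines, and of these only Pcdhga9 and Pcdh1 passed in every SunTag condition. The others passed through a condition without LIF or with Dox, so a member that was tested there was likely to differ. The number called among those tested carries no weight by itself. The p-values of these members for LIF removal are likewise favoured by the filter. Per kilobase of annotated exon, the order of the leading pair swapped with LIF: in the Nanog lines without Dox, Pcdhga9 stood at 87.0 and Pcdh1 at 13.7 normalised counts per kb with LIF, against 28.6 and 321 per kb without it. The alpha and gamma values per kb are diluted, because each of these entries merges 10 annotated transcripts with alternative first exons.

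**Figure D1:**
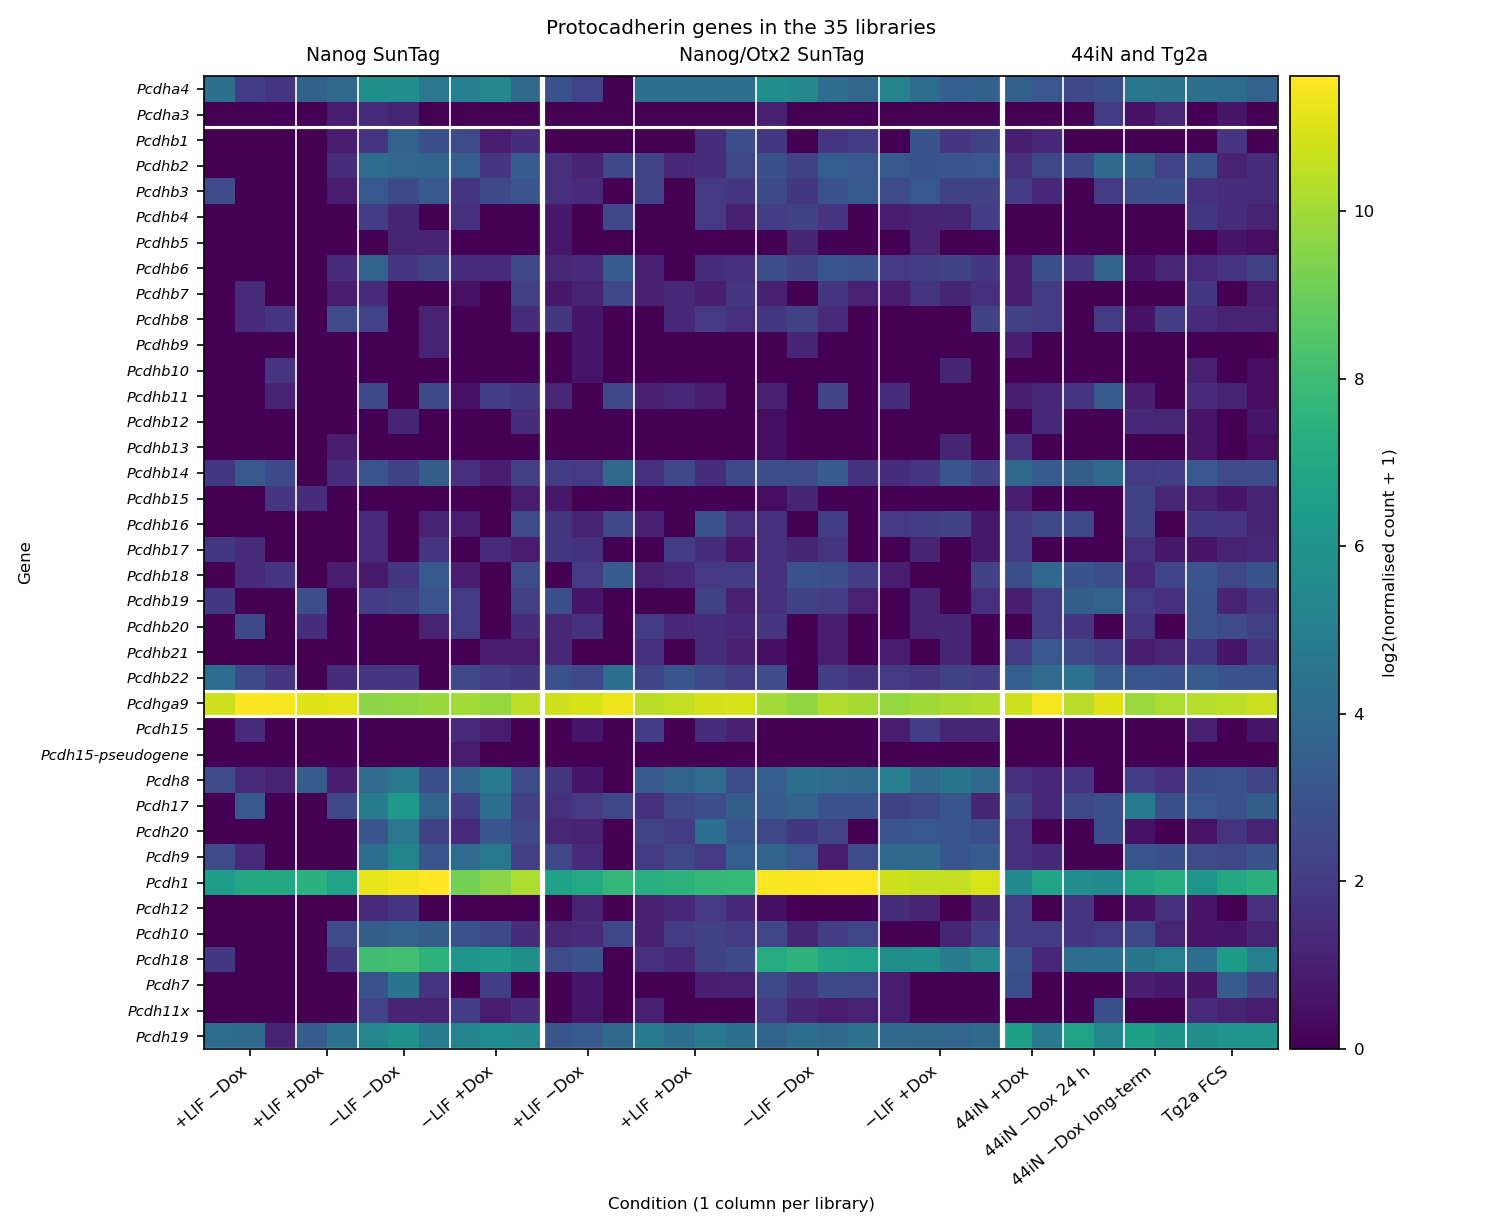
Heat map of log2(normalised count + 1) for the 38 protocadherin genes (rows, by class) in the 35 libraries (columns, by group). The Pcdhga9 row is filled in every library, the Pcdh1 row brightens in the libraries without LIF, and most beta rows stay near 0.

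LIF removal without Dox gave the most calls among members. Among libraries of the Nanog lines 6 members rose and 1 fell, against 20.2% of all 15624 genes tested that rose and 21.3% that fell (edgeR's quasi-likelihood test, Benjamini-Hochberg adjusted p under 0.05). Among Nanog/Otx2 libraries 5 members rose and 1 fell, against 24.6% and 25.2% of 15609 genes. Pcdha4, Pcdh18, Pcdh19 and Pcdh1 rose and Pcdhga9 fell in both pairs of lines. Without the second C2 library with LIF, 4 members were called in the Nanog lines, with Pcdha4, Pcdh17 and Pcdh19 lost. In bulk RNA a change in the number of cells of a type and a change in RNA per cell cannot be told apart.

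Pcdh1, a non-clustered member that binds at epithelial cell contacts, lies at chr18:38345569-38371707 on the minus strand (mm9), beyond the end of the gamma cluster. With LIF and without Dox it stood in the Nanog lines at 88.4 in C1 and at 132 and 127 in the C2 libraries, and without LIF at 2320 and 2731 in C1 and 3078 in C2. The Nanog/Otx2 lines held 99.9, 135 and 213 with LIF and 2874, 2989, 3073 and 3122 without. Every library without LIF lay far above every library with LIF, in both clones of each pair. The log2 fold change was 4.51 ± 0.31 (SE; adjusted p = 2.3e-06, edgeR's quasi-likelihood test) in the Nanog lines and 4.43 ± 0.20 (adjusted p = 7e-10) in the Nanog/Otx2 lines.

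Pcdh18, which lies alone at chr3:49547218-49561238 (mm9), was close to absent with LIF. Without Dox it stood in the Nanog lines at 2.68, 0 and 0 with LIF, which is 1 read in all, and at 268, 279 and 182 without. The ratio over pooled counts was 436, with a 95% counting interval of 78.0 to 17244, so the size of the ratio is poorly fixed. Values of 5.36, 6.80 and 0 with LIF in the Nanog/Otx2 lines stood against 142, 185, 115 and 97.9 without, a log2 fold change of 4.55 ± 0.43 (adjusted p = 7.3e-07, edgeR). The groups did not overlap in either pair of lines. Wild-type Tg2a cells, also with LIF, held 17.5, 84.5 and 31.9, above all 12 SunTag libraries with LIF. Line and batch cannot be told apart there and no test was made.

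Pcdh19, an X-linked member that pairs with N-cadherin and is mutated in a form of epilepsy, moved less. Its Nanog-line values were 16.1, 15.1 and 1.25 with LIF and 37.5, 60.8 and 28.3 without, a log2 fold change of 2.06 ± 0.65 (adjusted p = 0.0246, edgeR). This call was lost without the second C2 library with LIF, which holds the value of 1.25 (1.41, adjusted p = 0.0609), and without the second C1 library lacking LIF (1.73, adjusted p = 0.0831). Nanog/Otx2 libraries held 7.38, 9.07 and 13.9 with LIF and 12.0, 17.2, 15 and 20 without. These groups overlapped, and the difference of 0.77 ± 0.30 (adjusted p = 0.0438) did not pass with clone and number as a replicate block (0.73 ± 0.33, adjusted p = 0.0696) or in DESeq2 (adjusted p = 0.114), and passed in 3 of 13 alternatives. Tg2a cells held 52.0, 64.8 and 65.3 and 44iN cells between 26.4 and 103, with group means of 59.3 to 80.2, above the highest mean of a SunTag group (42.7). Those differences were not tested.

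Pcdh8, known for its part in paraxial mesoderm and somites, passed the filter only in the Nanog/Otx2 lines, and there only through conditions without LIF. It stood there at 2.68, 0.57 and 0 with LIF and at 10.0, 18.5, 15.8 and 14.5 without, a log2 fold change of 3.18 ± 0.62 (adjusted p = 0.00059, edgeR). The groups were far apart, though at low read numbers. In the Nanog lines, where it was not tested, it held 5.36, 1.68 and 1.25 with LIF and 15.5, 24.6 and 6.15 without. Pcdh17, a member of the neuronal delta subgroup, was tested only in the Nanog lines. It passed the filter there only through the group without LIF and Dox. Its values were 0, 8.38 and 0 with LIF and 28.5, 73.7 and 12.3 without. Its difference of 3.65 ± 1.17 (adjusted p = 0.027) did not pass with clone as a block (3.14 ± 1.26, adjusted p = 0.0605) or without any 1 of 3 of the libraries, the first C1 and second C2 with LIF and the second C1 without it (adjusted p = 0.0537, 0.094 and 0.101).

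The promoters of Pcdh18, Pcdh8, Pcdh19 and Pcdh17 are shown because these genes were called higher on LIF removal in at least 1 pair of lines. The promoters of Pcdh1, Pcdh12 and the clustered members were not analysed here. They are RefSeq sequences on GRCm38.p6, from 250 bases before to 50 after the transcription start, read 5′ to 3′ on the gene's strand, with capitals marking the motif letters found. Of the other non-clustered members, 9 had such an entry. Pcdh18 is at chr3:49757267-49757566 (minus), Pcdh8 at chr14:79771263-79771562 (minus), Pcdh19 at chrX:133688944-133689243 (minus) and Pcdh17 at chr14:84443313-84443612 (plus).
Pcdh18: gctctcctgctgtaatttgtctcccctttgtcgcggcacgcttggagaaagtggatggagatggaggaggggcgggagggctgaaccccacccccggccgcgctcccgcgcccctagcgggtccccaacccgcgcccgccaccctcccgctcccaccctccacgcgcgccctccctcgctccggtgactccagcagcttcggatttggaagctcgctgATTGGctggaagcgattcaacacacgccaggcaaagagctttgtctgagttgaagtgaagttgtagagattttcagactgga
Pcdh8: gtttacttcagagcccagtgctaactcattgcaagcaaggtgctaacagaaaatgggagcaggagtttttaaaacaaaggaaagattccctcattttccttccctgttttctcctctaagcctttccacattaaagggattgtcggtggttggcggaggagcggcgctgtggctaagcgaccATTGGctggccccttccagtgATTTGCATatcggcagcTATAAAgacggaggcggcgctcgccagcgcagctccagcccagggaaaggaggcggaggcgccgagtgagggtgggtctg
Pcdh19: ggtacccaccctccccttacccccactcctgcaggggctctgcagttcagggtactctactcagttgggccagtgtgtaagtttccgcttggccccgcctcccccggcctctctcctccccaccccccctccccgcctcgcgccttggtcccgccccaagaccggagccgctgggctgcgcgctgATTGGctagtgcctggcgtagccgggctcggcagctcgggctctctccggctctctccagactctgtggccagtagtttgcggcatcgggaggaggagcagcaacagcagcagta
Pcdh17: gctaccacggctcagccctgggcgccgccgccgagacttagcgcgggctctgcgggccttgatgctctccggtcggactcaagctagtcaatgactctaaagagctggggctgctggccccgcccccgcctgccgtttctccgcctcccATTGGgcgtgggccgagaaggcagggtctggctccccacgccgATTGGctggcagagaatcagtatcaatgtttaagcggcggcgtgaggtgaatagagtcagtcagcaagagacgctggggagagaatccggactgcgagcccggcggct

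The motifs searched, on both strands and with overlaps between motifs allowed, were the octamer ATGCAAAT read by Oct4-type factors, the site TAATCC read by bicoid-type homeodomain factors such as Otx2, the core of the TATA box (TATAAA), the pentamer CCAAT of the CCAAT box, and the E-box CACGTG. These members, among which Pcdh1 is not counted, held a CCAAT box in 8 of 9 cases, against 37.41% of 32851 promoters of the same length, and lay at -32 in Pcdh18, -68 in Pcdh8, -65 in Pcdh19 and at -101 and -58 in Pcdh17, in the reverse orientation in all of these. Pcdh8 alone held an octamer, at -47, also reversed, followed by a TATA box at -30. These motifs occur in 1.74% and 13.62% of promoters. Neither the homeodomain site (7.06% of promoters) nor the E-box (7.15%) was in any of the 9, which says only that these letters are absent from this window. CpG dinucleotides numbered 23 in Pcdh18, 14 in Pcdh8, 18 in Pcdh19 and 26 in Pcdh17, against a median of 7 over all promoters. Fewer were held by 78.5%, 63.7%, 70.3% and 83.1% of all promoters, in the same order. A match is a description of the sequence, not of binding.

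The gamma entry moved the other way on LIF removal. Pcdhga9 spans chr18:37833989-38001527 on the plus strand and gathers the reads of transcripts that share constant 3′ exons, so that which gamma promoters were used cannot be read from it. The libraries of the Nanog lines held 1703, 2942 and 2921 with LIF and 766, 818 and 901 without. Nanog/Otx2 libraries held 1755, 1931 and 2532 with LIF and 1021, 827, 1242 and 1070 without. The groups were separate in both pairs, with log2 fold changes of -1.62 ± 0.23 (adjusted p = 0.000244, edgeR's quasi-likelihood test) and -1.02 ± 0.16 (adjusted p = 0.000126).

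The alpha entry, Pcdha4, covers chr18:37089939-37347311 and likewise merges its cluster, and it rose from a low level. It stood at 18.7 in C1 and at 3.35 and 2.50 in C2 with LIF, and without LIF at 54.6 and 50.4 in C1 and 23.4 in C2. The difference of 2.60 ± 0.70 (adjusted p = 0.012, edgeR) was lost without either C2 library with LIF, at adjusted p = 0.0524 and 0.0575. Nanog/Otx2 libraries held 6.71, 3.97 and 0 with LIF and 51.2, 43.6, 16.6 and 13.4 without, a change of 2.68 ± 0.62 (adjusted p = 0.00229). Within each clone the values without LIF were all above those with LIF. Alpha and gamma, which share a locus and a type of promoter choice, therefore differed in direction in both pairs of lines.

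Among the beta genes, which are single-exon genes with 1 promoter each, only Pcdhb2 (chr18:37454494-37457267, mm9) passed the filter, and only in the Nanog lines. It had no read in the 3 libraries with LIF and stood at 16.3, 12.9 and 12.3 without. This was at least 8.39-fold higher against a floor of 3 counts over the group (adjusted p = 0.00356, edgeR). Pcdhb2 passed the filter only through the group without LIF and Dox, so the filter favoured this p-value. Its Nanog/Otx2 values were 2.01, 1.13 and 4.63 with LIF and 6.02, 3.96, 9.99 and 7.79 without, which overlap. The summed beta signal was 24.4 ± 5.4 with LIF and 62.8 ± 11.9 without in the Nanog lines, but 44.7 ± 26.2 and 48.3 ± 13.5 in the Nanog/Otx2 lines. Pcdhb22, picked out after its values were seen, did not pass the filter. In the Nanog lines it held 16.1, 5.03 and 2.50 with LIF and 2.44, 2.59 and 0 without, which overlap. With no filter it was called neither there (-1.97 ± 1.15, adjusted p = 0.241, edgeR) nor in the Nanog/Otx2 lines (-1.26 ± 0.65, adjusted p = 0.169).

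**Figure D2:**
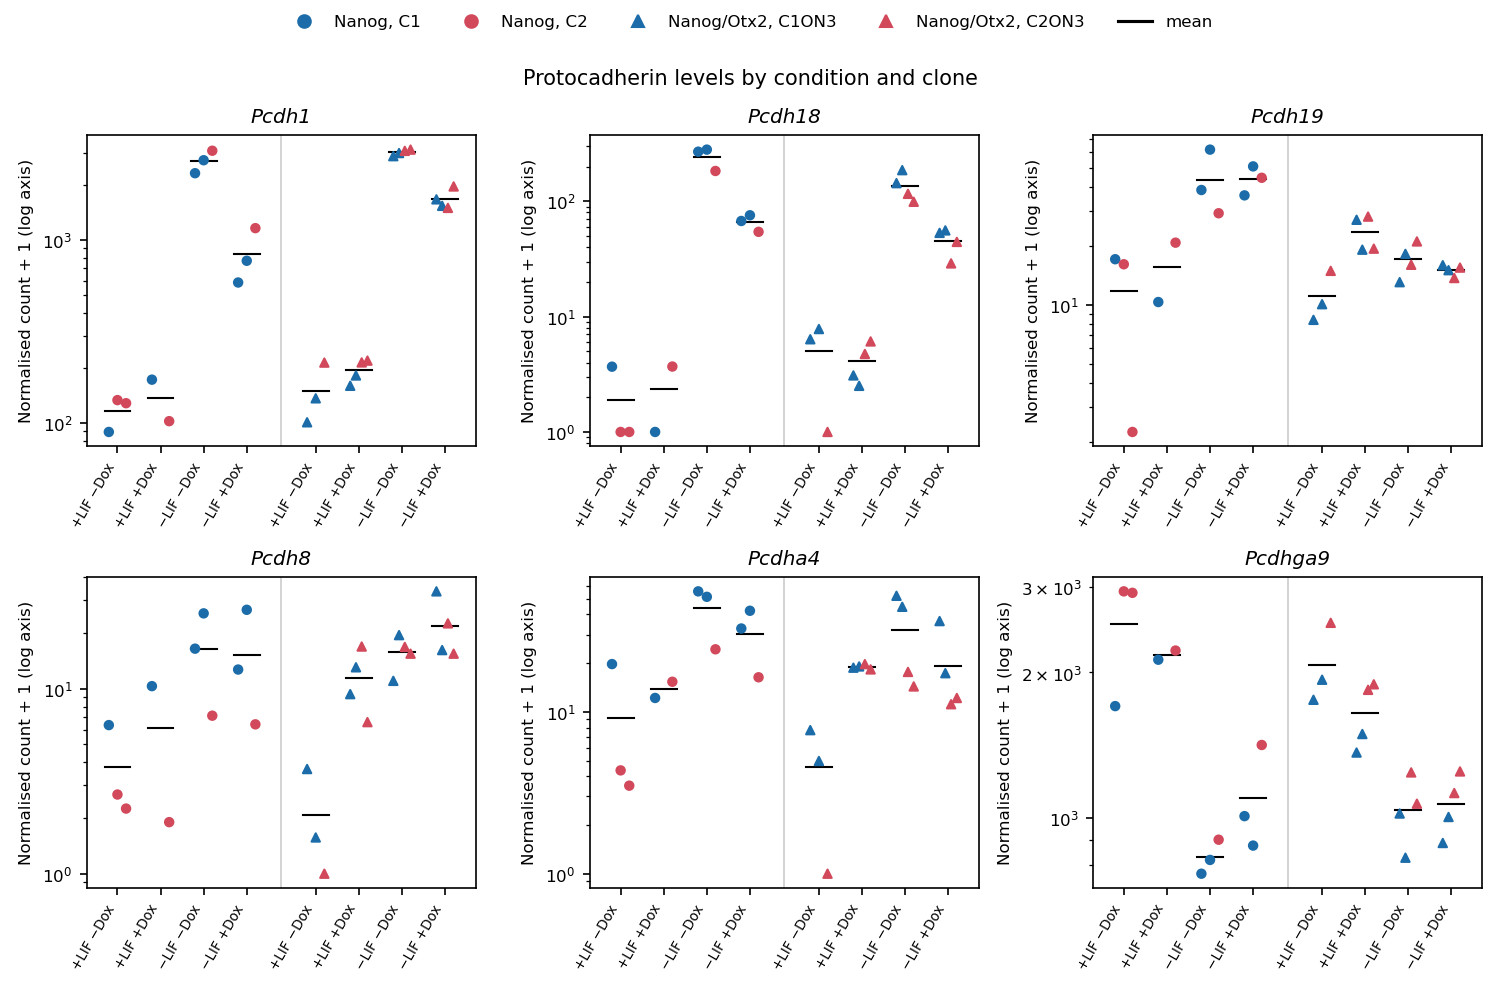
Normalised count + 1 (log axis) of 6 protocadherins in each library by condition, coloured by clone, with a black line at the group mean. Pcdh1 and Pcdh18 sit far higher in the SunTag conditions without LIF and are lower there with Dox, while Pcdhga9 is lower without LIF.

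With no filter on low values, 12 members rose and 1 fell on LIF removal in the Nanog lines, where 13.4% of 24619 genes rose and 12.1% fell. Besides those named, these were Pcdh7, Pcdh9, Pcdh10 and Pcdh20 of the non-clustered class and Pcdhb1 and Pcdhb6 of the beta class. None of these 6 reached a group mean of 25 normalised counts, and Pcdh7, Pcdh10, Pcdh20, Pcdhb1 and Pcdhb6 had no read with LIF, with lower bounds of the fold between 3.56 (Pcdhb1) and 6.29 (Pcdh20). The same step in the Nanog/Otx2 lines called 6 higher (Pcdh1, Pcdh18, Pcdh7, Pcdh8, Pcdha4 and Pcdhb2) and Pcdhga9 lower, against 15% and 14.2% of 26487 genes.

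In cells without LIF, Dox, which switches on the activator at Nanog, went with less Pcdh1 and Pcdh18. In the Nanog lines Pcdh1 stood at 585 and 770 in C1 and 1161 in C2 with Dox, all below the 2320 to 3078 without, a log2 fold change of -1.66 ± 0.27 (adjusted p = 0.00469, edgeR's quasi-likelihood test). Pcdh18 stood at 66.4, 74.6 and 53.3, below 182 to 279, at -1.88 ± 0.38 (adjusted p = 0.0159). These 2 were the members called of 7 tested, where 1.54% of all genes fell. The call on Pcdh18 was lost without any 1 of 5 of the 6 libraries, all but the C2 library without Dox, at adjusted p of up to 0.0882, while that on Pcdh1 held in each case.

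In the Nanog/Otx2 lines Dox without LIF again lowered Pcdh1 and Pcdh18, 2 of 6 members tested against 6.15% of all genes. Pcdh1 stood at 1669, 1538, 1498 and 1963, all under the 2874 to 3122 without Dox, at -0.82 ± 0.15 (adjusted p = 0.00177, edgeR). Pcdh18 stood at 52.2, 54.9, 27.9 and 43.4, against 97.9 to 185, at -1.55 ± 0.30 (adjusted p = 0.00243). Even so, both stayed above every SunTag library with LIF. The naive markers also moved on Dox, 8 of 8 rising in both pairs, against 562 of 15624 and 1742 of 15609 genes tested. Their part in these differences was not tested. The Dox and LIF comparisons share the libraries without LIF and Dox.

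Whether Dox acted less on Pcdh1 in the Nanog/Otx2 than in the Nanog lines was tested as a difference of differences, which gave 0.80 ± 0.30 (unadjusted p = 0.0126, adjusted p = 0.71, edgeR). None of 8 members passed that test without LIF, where 0.0308% of genes did, with 1 at an unadjusted p under 0.05 and 0 in DESeq2, nor with LIF (0.037% of genes, 0 at an unadjusted p under 0.05 and 0 in DESeq2). A difference in Dox response between the pairs of lines was thus not detectable for these genes.

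With LIF, Dox went with higher Pcdh8, Pcdh19 and Pcdha4 in the Nanog/Otx2 lines. Pcdh8 rose from 2.68, 0.57 and 0 to 8.35, 12.1, 15.9 and 5.60 (2.74 ± 0.64, adjusted p = 0.00727, edgeR). Pcdh19 rose from 7.38, 9.07 and 13.9 to 26.1, 18.1, 27.1 and 18.3 (1.33 ± 0.29, adjusted p = 0.00534). Pcdha4 rose from 6.71, 3.97 and 0 to 17.8, 18.1, 18.7 and 17.3 (1.91 ± 0.64, adjusted p = 0.0432). No group overlapped. These 3 of 6 members compare with 12.9% of all genes that rose. All 3 failed the filter in the group with LIF and without Dox and passed through other groups. The count therefore carries no weight by itself. The other members tested, Pcdh18 (-0.63, adjusted p = 0.407), Pcdhga9 (-0.30, adjusted p = 0.199) and Pcdh1 (0.53, adjusted p = 0.0569), were not called. The call on Pcdha4 was lost without any 1 of the 7 libraries, at adjusted p of 0.0611 to 0.171, and with no filter on low counts (adjusted p = 0.0552), and that on Pcdh8 without the second C1ON3 library with LIF and no Dox (adjusted p = 0.0699). With clone and number as a replicate block 5 members were called, with Pcdhga9 (-0.37 ± 0.09, adjusted p = 0.00487) and Pcdh1 (0.50 ± 0.16, adjusted p = 0.0249) added. In the Nanog lines 0 of 7 members passed (0.563% of genes did; 0 at an unadjusted p under 0.05, and 0 in DESeq2), with 2 libraries under Dox.

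**Figure D3:**
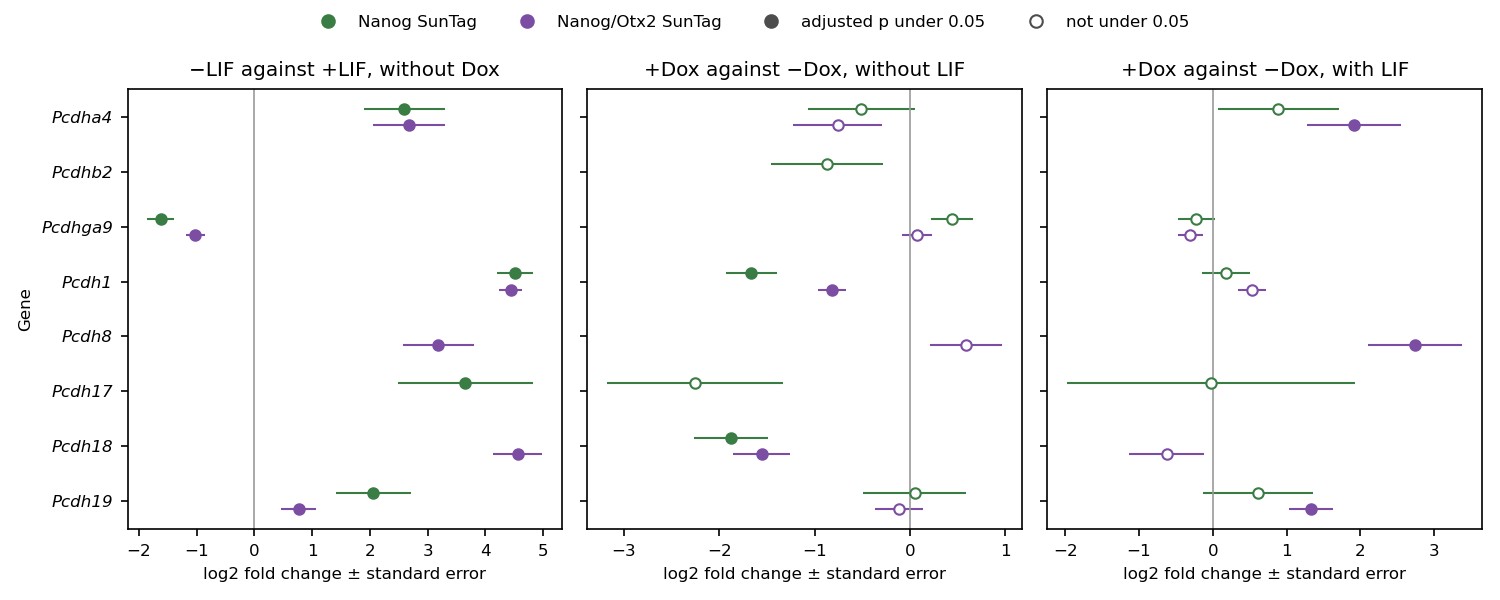
Log2 fold change ± SE of tested protocadherins for LIF removal, Dox without LIF and Dox with LIF in the Nanog and Nanog/Otx2 lines, with filled symbols at adjusted p under 0.05 and genes left out where a group held 3 reads or fewer. Pcdh1 stands over 4 on LIF removal in both pairs and below 0 for Dox without LIF, and Pcdhga9 is the one member below 0 on LIF removal.

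The effect of Dox on Pcdh1 depended on LIF. In the Nanog lines the Dox effect without LIF minus that with LIF was -1.84 ± 0.42 (adjusted p = 0.0477, edgeR's quasi-likelihood test), 1 of 7 members where 0.608% of genes were lower. That value lost its call without any of 10 of the 11 libraries, at adjusted p of up to 0.178. In the Nanog/Otx2 lines, where this test was added after the data had been seen, it was -1.34 ± 0.24 for Pcdh1 (adjusted p = 0.00297), which held in all 21 alternatives. Pcdh19 (-1.45 ± 0.39, adjusted p = 0.0278) and Pcdha4 (-2.67 ± 0.79, adjusted p = 0.0455) also passed, which makes 3 of 6 members against 4.55% of genes. These 2 were lost in 9 and 13 of 21 alternatives. Both failed the filter in the group with LIF and without Dox, so this count carries no weight by itself. Pcdhga9 passed only with the replicate block (0.43 ± 0.12, adjusted p = 0.0181).

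**Figure D4:**
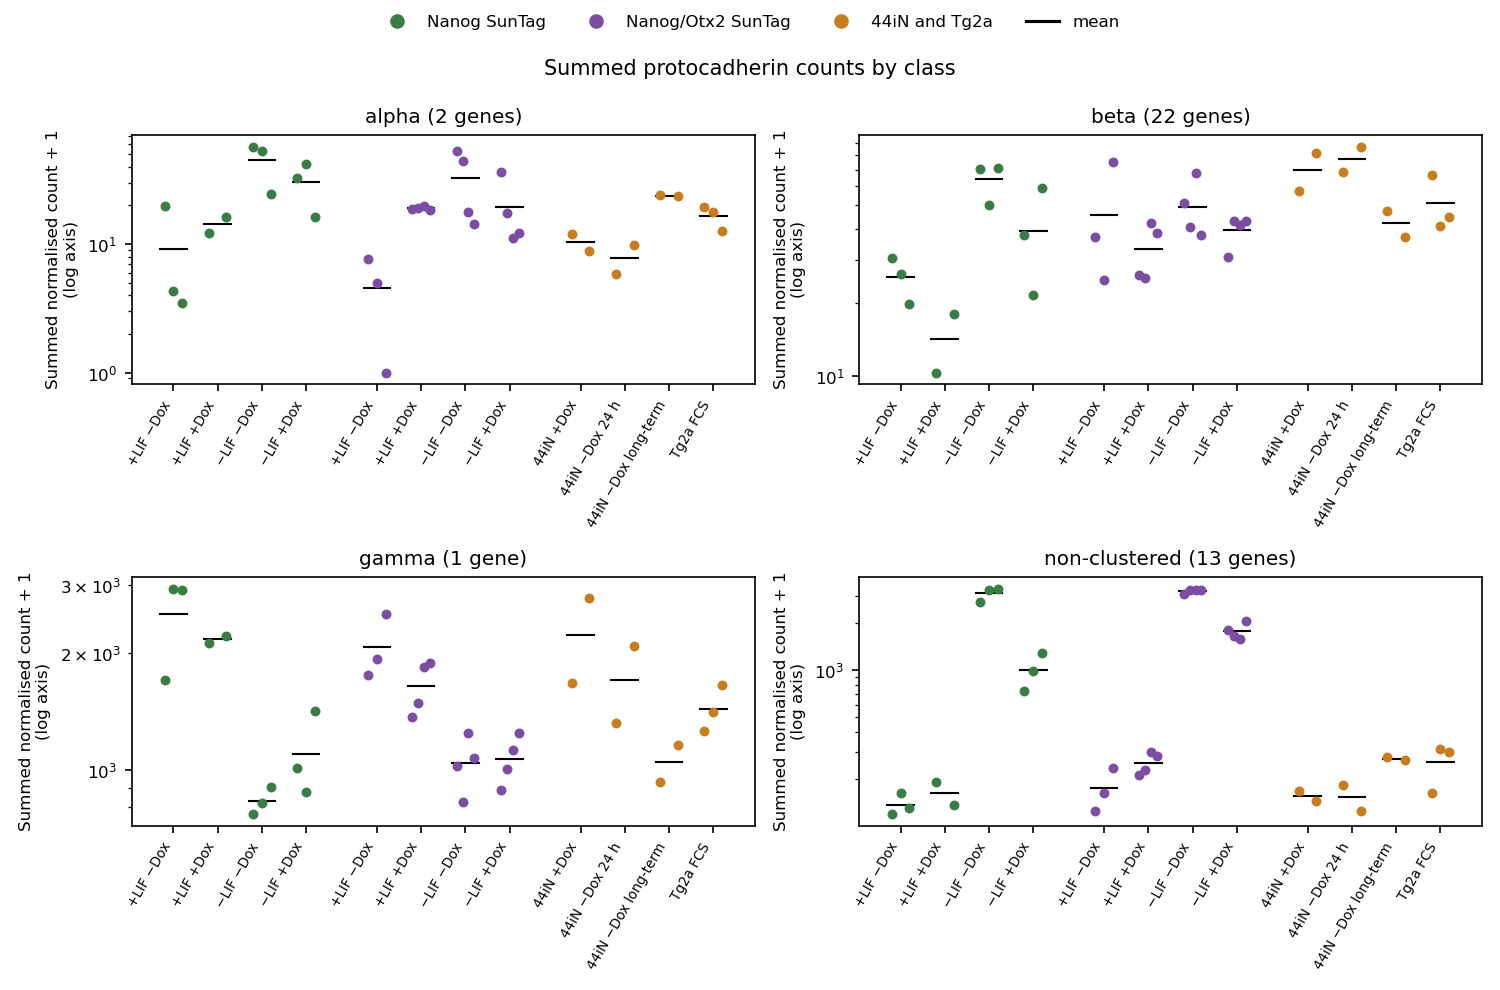
Summed normalised counts + 1 (log axis) of the alpha, beta, gamma and non-clustered classes in each library of the 12 groups. The non-clustered sum is highest in the SunTag groups without LIF and without Dox, at 3104 and 3208 on average, where the gamma sum is at 828 and 1040.

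Removal of Nanog in 44iN cells left no member called, of 4 tested (edgeR, 0% of all genes; 0 members in DESeq2). In edgeR even Otx2, at -2.92 ± 0.29 with over without Dox, was not called (adjusted p = 0.156). The lack of a call in this small comparison therefore says little about the members. Pcdh18 was the 1 member at an unadjusted p under 0.05, at 6.94 and 1.56 with Dox and 16.8 and 17.7 after 24 h without, a difference of -1.77 ± 0.70 (with over without Dox, adjusted p = 0.691). Without the first library with Dox, 2 were called, Pcdhga9 (0.84, adjusted p = 0.00716) and Pcdh18 (-3.14, adjusted p = 0.0155). The calls of a fit on 3 libraries rest on 1 library varying like the others. Pcdh1 stood at 45.6 and 109 with Dox and at 50.4 and 44.4 without.

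Long-term Nanog-null 44iN cells were set against Tg2a cells, which differ from them in genotype, line and drug selection at once, so these cannot be told apart. No member was called of 5 tested, where 8.61% of genes were (edgeR; 0 in DESeq2). Pcdhga9 was the 1 at an unadjusted p under 0.05, at 932 and 1160 against 1257, 1406 and 1655 (-0.54 ± 0.18, adjusted p = 0.0978). Pcdh1 stood at 113 and 148 against 69.0, 129 and 168, a difference of 0.02 ± 0.38. Naive markers were lower in these cells (6 of 8 fell, against 785 of 14937 genes tested). Pcdh1 stayed below every SunTag library without LIF. Line and batch cannot be told apart in that comparison, and it was not tested.

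Between clones, the alpha and gamma entries moved in opposite directions. In the Nanog/Otx2 lines Pcdha4 was lower and Pcdhga9 higher in C2ON3 than in C1ON3, by -1.03 ± 0.28 (adjusted p = 0.0111, edgeR's quasi-likelihood test) and 0.37 ± 0.06 (adjusted p = 0.00014), where 19.5% of all genes were lower and 15.8% higher. Without LIF and Dox, for example, Pcdha4 was at 51.2 and 43.6 in C1ON3 and 16.6 and 13.4 in C2ON3. With LIF and Dox there was no such gap, at 17.8 and 18.1 against 18.7 and 17.3. In the parent C1 and C2 lines 0 of 7 members passed (7.23% of genes did), with the same 2 at an unadjusted p under 0.05: Pcdha4 at -1.14 ± 0.39 (adjusted p = 0.103) and Pcdhga9 at 0.42 ± 0.12 (adjusted p = 0.0576), the latter called by DESeq2 (adjusted p = 0.0186). Without either library with LIF and Dox, both were called. C1ON3 and C2ON3 descend from C1 and C2, and each is a single clone.

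Of the genes within 500 kb of the clusters (chr18:37089939-38001527), members left out, 4 of 28 tested were higher and 3 lower in C2ON3. Over all genes tested, 15.8% were higher and 19.5% lower. The median log2 difference was 0.01 near the clusters against -0.01 for the rest of the chromosome. Besides Gm16882 and Diap1, the neighbours called were Apbb3, Ik and 3222401L13Rik, which were higher, and Hbegf and Gnpda1, which were lower. Gm16882, an antisense RNA over the gamma cluster, was higher in C2ON3 (0.83 ± 0.31, adjusted p = 0.0487, edgeR) and stood at 1.31 ± 0.46 (adjusted p = 0.11) in C2. Diap1, which lies just past the gamma constant exons and encodes an actin nucleator, was lower in C2ON3 (-0.30 ± 0.05, adjusted p = 0.000407).

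Of 28 listed regulators of the clusters 27 were in the table, and all of these passed the filter. On LIF removal 12 rose and 3 fell in the Nanog lines (median log2 fold change 0.37, against -0.05 for all genes), where 20.2% of all genes rose and 21.3% fell. In the Nanog/Otx2 lines 10 rose and 6 fell (median 0.01, against -0.01), where 24.6% of all genes rose and 25.2% fell. Among them Smchd1, which represses clustered protocadherins, rose by 1.57 ± 0.22 and 0.92 ± 0.09, the DNA methyltransferase Dnmt3b by 4.07 ± 0.30 and 3.38 ± 0.32, and Ctcf by 0.60 ± 0.15 and 0.28 ± 0.07. The cohesin subunit Rad21 was at 0.04 ± 0.16 in the Nanog lines and at -0.40 ± 0.08, a called fall, in the Nanog/Otx2 lines. Of 19 listed intracellular effectors 5 rose and 1 fell in the Nanog lines, and 7 rose and 5 fell in the Nanog/Otx2 lines, to be read against the same shares of all genes.

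Among cadherins outside the protocadherins, 15 of 27 tested rose on LIF removal and 0 fell in the Nanog lines (edgeR; median 1.39), and 12 of 28 rose and 3 fell in the Nanog/Otx2 lines (median 0.53), against 20.2% and 21.3% of all genes in the former and 24.6% and 25.2% in the latter. E-cadherin (Cdh1) rose by 0.98 ± 0.15 and 0.85 ± 0.12, N-cadherin (Cdh2) by 3.15 ± 0.41 and 1.71 ± 0.26, and the giant cadherin Fat1 by 2.60 ± 0.16 and 1.37 ± 0.16. Celsr2, a planar polarity cadherin, rose by 1.81 ± 0.28 and 1.43 ± 0.23. These rises all passed edgeR's test in both pairs of lines. Mesoderm markers were tested in 5 cases in the Nanog lines, of which 2 rose and 1 fell, and neural markers in 4, of which 1 rose and 1 fell. Their part in the protocadherin changes was not tested.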

How the data were processed

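Gene counts and normalised values of 35 RNA-seq libraries were used. Tg2a samples grown in 2i (3) were not analysed here. As the labels and the study's methods state, the authors made stranded TruSeq libraries, called bases with CASAVA 1.8, mapped to mm9 with STAR and deposited RSEM estimated counts per gene, rounded to whole numbers. The deposited normalised counts (a signal unit here) are these counts divided by DESeq2 size factors. Versions of the aligner and counter are not given in the sources used here. Groups came from the sample labels. Counts of paralogous beta genes and of the merged alpha and gamma entries depend on how RSEM shared reads.

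Tests were run on the counts with edgeR 4.0.16 (glmQLFit and glmQLFTest, TMM, R 4.3.3) over all genes that held 10 normalised counts or more in each library of some condition, with Benjamini-Hochberg adjustment and a threshold of 0.05, after being tested on simulated data. SunTag comparisons were fitted within each pair of lines, on all its conditions. The main fits had no replicate block. Alternatives were DESeq2 1.42.0, DESeq2 size factors in edgeR, no filter, edgeR's filterByExpr, a block and leaving out each library. Clones recur across conditions. Residuals of libraries of 1 clone correlated at -0.06 to 0.41 in the Nanog lines, against -0.31 to 0.01 between clones, and those of 1 clone and number at 0.13 to 0.55 in the Nanog/Otx2 lines, against -0.51 to 0.35 otherwise. The clones are cell lines and so pair the samples. Numbers were those of the sample titles. For the C2ON3 library with LIF and without Dox the table header has 2 where the title has 1, so a block on the header's numbers was added after the data were seen. Header and title numbers also differ for some libraries of the Nanog lines with Dox. There the C1 libraries with Dox and without LIF share title number 1. Bounds and ratios on a few reads are 95% counting intervals or use a floor of 3 counts, and cover counting error only. Members, lists and tests were chosen with earlier results of these data known. Named members were those that passed the filter or were called without it, and Pcdhb22, named after its values were seen. Promoters came from RefSeq on GRCm38.p6, and all other coordinates from mm9.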

Additional observations from a re-analysis of the deposited data

Results flagged for a closer look

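The effect of Dox differed between cultures without and with LIF, by an interaction term in edgeR's quasi-likelihood test, in 4 cases. In the Nanog lines this was Pcdh1 (-1.84 on the log2 scale, adjusted p = 0.0477). In the Nanog/Otx2 lines, where the test was added after the data had been seen, these were Pcdh1 (-1.34, adjusted p = 0.00297), Pcdh19 (-1.45, adjusted p = 0.0278) and Pcdha4 (-2.67, adjusted p = 0.0455). Dixon's criterion was applied to 22 sets of 4 values, each of 1 member in 1 Nanog/Otx2 condition with 4 libraries. No library stood apart in these sets. Conditions with fewer libraries, among them all of the Nanog lines, were not examined.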

How the results depend on the processing

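The calls on Pcdh1 and Pcdhga9 for LIF removal held under every alternative run (11 in the Nanog and 13 in the Nanog/Otx2 lines), as did those on Pcdh1 for Dox without LIF (11 and 14). With no filter, 13 members were called for LIF removal in the Nanog lines, 4 for Dox without LIF in the Nanog/Otx2 lines (Pcdh7 lower and Pcdh15 higher, beside Pcdh1 and Pcdh18), 1 for the interaction of LIF and Dox there and 2 between C1 and C2 (Pcdhga9 higher, Pcdh8 lower). Between C1 and C2, DESeq2 called 1 and filterByExpr 1 (Pcdh8). With the replicate block, 5 were called for Dox with LIF in the Nanog/Otx2 lines, and the block on the header's numbers called the same members as the block on title numbers in each of the 4 comparisons within these lines. Outside the changes given above, the block moved no call among the SunTag comparisons. Numbers of the 44iN and Tg2a libraries do not pair them by the labels. Same-numbered libraries correlated at 0.49 in 44iN. With 2 libraries per group the 2 pairs must give the same value and the other pairs its negative, so this is 1 value. In the long-term comparison same-numbered libraries correlated at 0.08 to 0.19. A block on the number gave 0 calls in 44iN and 1 call in the long-term comparison (Pcdhga9, -0.45 ± 0.11, adjusted p = 0.00964, edgeR). On leaving out 1 library each, calls ranged from 4 to 7 (LIF removal), 1 to 2 (Dox without LIF), 0 to 0 (Dox with LIF) and 0 to 1 (interaction) in the Nanog lines, from 5 to 6, 2 to 2, 1 to 3 and 1 to 4 in the Nanog/Otx2 lines, from 0 to 0 for both guide comparisons and the long-term comparison, from 0 to 2 in 44iN cells, and from 0 to 2 and 2 to 3 between clones. The log2 ratio of summed beta counts on LIF removal was 1.36 in the Nanog and 0.11 in the Nanog/Otx2 lines and 1.00 and -0.03 without Pcdhb2, so the direction in the latter turned. That of the non-clustered sum was 4.51 and 4.20, and 4.29 and 2.96 without Pcdh1. Alpha and gamma sums without their leading member were not run, since too little is left. Apart from what these constructions fix, the cause was not tested. Depth limits members below about 10 normalised counts, which in the shallowest library are few reads.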
